A study of Mus musculus with 24 samples.

Results

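Cycling tumour cells of 2 mouse mammary carcinoma lines, D2A1 and EMT6, were compared by bulk RNA sequencing. The comparison used the 8 p27K negative libraries of these lines, 4 per line, out of 24 libraries in a series of 3 lines and both p27K gates. The libraries were chosen by their labels, with no measured value entering the choice. Both lines carried 2 transgenes, mCherry and an mVenus-p27K fusion that reports p27, an inhibitor of the cell cycle. Tumours came from 250000 cells placed in a mammary fat pad of female Balb/cJ hosts and were collected on day 14. The labels describe the p27K negative cells as the proliferative population, sorted beside the quiescent p27K high cells of the same tumour. The labels give 4 tumours per line and 1 transduced cell line behind each set, so the spread between libraries is that between tumours of a line and not between lines. The labels give D2A1 sequencing run 1 and EMT6 run 2. Line and run cannot be told apart, and the text therefore keeps mainly to large differences. These needed at least 4-fold and a Benjamini-Hochberg adjusted p below 0.05 in edgeR's quasi-likelihood test. Smaller differences are also given, for some genes, gene lists and chromosomes, and line and run are confounded in them too.

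D2A1 is a line from a mammary tumour that arose in a BALB/c mouse from a hyperplastic alveolar nodule line. EMT6 likewise goes back to a BALB/c mammary tumour from a transplanted hyperplastic nodule, and both are used as transplantable models of breast cancer in immunocompetent hosts. The mammary ductal tree has luminal cells, which carry keratins 8 and 18 and E-cadherin, and basal or myoepithelial cells, which carry p63, keratins 5 and 14 and smooth muscle actin. Carcinoma cells that have gone through an epithelial-mesenchymal transition lose the junction genes and gain vimentin, fibronectin and other mesenchymal genes.

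The D2A1 p27K negative libraries held 1335433, 2110563, 1802042 and 15641189 counts, in the order of columns 1, 2, 3 and 4, and the EMT6 libraries held 16988365 to 17508301. Genes with a count numbered 15164 to 21319 in D2A1 and 20375 to 20931 in EMT6. Mitochondrial genes took 1.49% to 1.63% of counts in D2A1 and 0.809% to 1.04% in EMT6. The EMT6 columns are numbered 0, 1, 2 and 4. Levels are in CPM, counts per 1000000 after TMM scaling, and values per library follow these column orders. In D2A1 column 4, 1 count is 0.0621 CPM, and in column 1 it is 0.716 CPM, so low levels are coarser in the 3 shallow libraries.

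Mki67, which encodes the proliferation marker Ki-67 (chromosome 7, 135689784 to 135716361, minus strand), stood at 943, 854, 1077 and 912 CPM in D2A1, against 513, 587, 487 and 575 CPM in EMT6. Cdkn1b, which encodes p27 and may also collect reads of the reporter, stood at 301, 316, 339.7 and 275 CPM in D2A1, against 250.3, 230.1, 218 and 243 CPM in EMT6. Both differed by less than 4-fold, with log2 fold changes of 0.81 ± 0.09 and 0.38 ± 0.08 (D2A1 over EMT6, ± SE, n = 4 each). Among 44 tested genes of the G1/S transition none had a large difference, with a median log2 fold change of -0.20, and among 48 genes of G2 and mitosis none, with a median of 0.38. These medians stand beside -0.01 over all genes tested. At an adjusted p under 0.05 with no minimum fold, edgeR called 7 of the G1/S genes higher in D2A1 and 20 lower, 28 of the G2 and mitosis genes higher and 5 lower, and 8006 of all genes (58.7%). The cell cycle genes ranged from -1.22 to 1.70.

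Of 13633 genes tested, 1614 had a large difference, which is 11.8% of them: 786 were higher in D2A1 (5.77%) and 828 were lower (6.07%). The counts of large genes given for each gene list stand beside these shares. By edgeR's estimates 516 of the large genes differed at least 32-fold, while the median absolute log2 fold change over all genes was 0.52. These estimates put no floor under a group with 0 counts. Scgb1a1, with 0 counts in D2A1, had an estimated log2 fold change of -8.11. With the floor of 3 counts used below it is at least 22.8-fold lower in D2A1. The libraries of the lines did not overlap for 1571 of the 1614, against 53.2% of all genes tested. The p27K high libraries of the same tumours, which the comparison did not use but which share its tumours and runs, gave 1877 large genes of 13876 tested (13.5%). Of the 1614 genes 1517 could be tested there, and 1344 of these (88.6%) were large with the same sign. In all 1509 had the same sign and 8 the opposite sign.

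**Figure D1:**
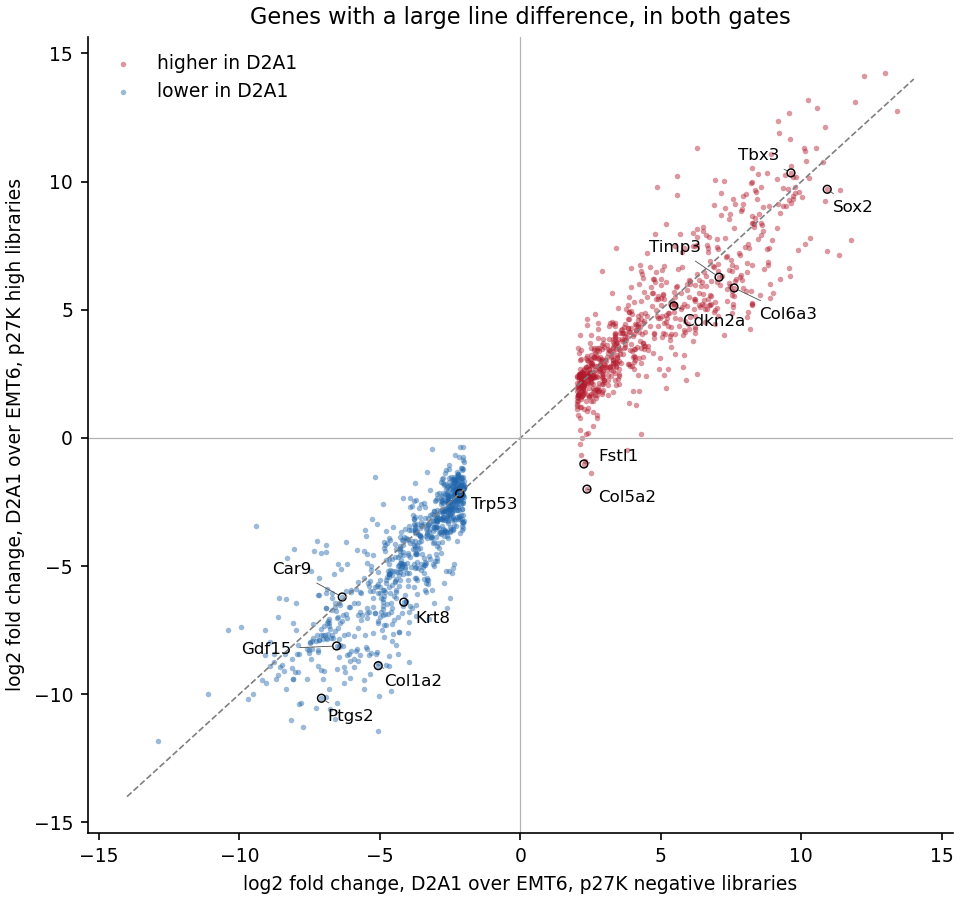
Log2 fold changes of D2A1 over EMT6 for the 1517 genes large in the p27K negative libraries (x axis) against those in the p27K high libraries (y axis). Red points are higher in D2A1 and blue points lower, the dashed line marks equality, and 8 points lie in a quadrant of opposite sign, among them Col5a2 and Fstl1.

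Genes found in 1 line and nearly silent in the other were counted first. There were 56 genes with at least 5 CPM in every D2A1 library and at most 3 counts over the 4 EMT6 libraries, and 39 with the reverse pattern. In the p27K high libraries 35 of the 56 and 21 of the 39 met the same rule, and the lines did not overlap there for any of the 56 or the 39. Slc47a1, a transporter of organic cations, stood at 70.9, 108, 97.0 and 87.7 CPM in D2A1, against 0, 0, 0 and 0 CPM in EMT6. This is at least 1955-fold higher if EMT6 is put at the floor of 3 counts over the group. Hamp2, a relative of the iron hormone hepcidin, was at least 1202-fold higher (30.8 to 61.4 against 0 CPM), and the protein kinase inhibitor gene Pkia at least 792-fold higher (34.3 to 44.0 against 0 CPM). The desmosomal plaque gene Pkp1, with 65.7 to 80.0 against 0 to 0.0612 CPM, and the lactate dehydrogenase gene Ldhb, with 35.8 to 44.5 against 0 to 0.122 CPM, were also found in D2A1 and nearly absent from EMT6. Some of the largest folds belonged to genes just outside that rule: the heparan sulfate sulfatase gene Sulf2 had 643, 543, 722 and 654 CPM in D2A1, against 0.184, 0.0612, 0.0603 and 0.612 CPM in EMT6, and B4galt6, which encodes a glycolipid galactosyltransferase, had 322, 322, 361 and 384 CPM in D2A1, against 0.184, 0, 0.0603 and 0 CPM in EMT6.

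In the reverse direction, the growth factor gene Bmp4 (chromosome 14, 46383520 to 46390669, minus strand) stood at 0, 1.36, 0 and 0 CPM in D2A1, against 63.7, 68.6, 61.2 and 62.8 CPM in EMT6. The ratio is 461-fold (95% exact interval 158 to 2238) lower in D2A1, from 3 counts. The basonuclin gene Bnc1, a zinc finger factor of squamous and germ cells, stood at 0.716, 0.452, 0 and 0 CPM in D2A1, against 44.9, 48.3, 46.3 and 46.7 CPM in EMT6. Ndrg2 (0 to 0.716 against 17.4 to 27.7 CPM), the frizzled receptor gene Fzd8 (0 to 0.452 against 5.96 to 10.2 CPM), the LIM homeobox gene Lhx9 (0 to 1.43 against 6.24 to 10.3 CPM) and the interleukin-3 receptor gene Il3ra (0 to 0.452 against 5.44 to 8.47 CPM) followed the same pattern, D2A1 given before EMT6. With a few counts in D2A1, the collagen chaperone gene Fkbp10 had 0 to 3.62 CPM in D2A1, against 179 to 188 CPM in EMT6. Several genes of this group are made in liver, Alb and Apob among them, and are described with the markers of other tissues.

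Promoters of these genes were read from RefSeq (GRCm38.p6), as the 250 bases before and 50 bases after the start of each gene. Of the genes found in D2A1, 39 of 56 had an entry, and of those found in EMT6, 29 of 39. A promoter was counted as CpG-rich at more than 50% G and C and an observed over expected CG ratio above 0.6. By this measure 56.4% of the D2A1 genes, 20.7% of the EMT6 genes and 69.0% of 9722 tested genes with an entry were CpG-rich. The median number of CG steps was 18, 9 and 21 in the same order. The letters TATAAA, on either strand, occurred in 15.4%, 17.2% and 7.06% of them. Shares over 39 and 29 promoters are a description, and no test was made. The 39 EMT6 genes include Alb, Apob, Cps1, Cyp2e1, Cyp27a1, Fabp1, Fgb, Gc and Hpx, which are on the liver list described below. The source of liver reads was not tested, and the CpG-rich share without these genes was not computed. The promoters of 2 genes found in D2A1 and 2 found in EMT6 are shown, with every CG in capitals, because they span the range of CG content: Id4 has 39 CG steps, Cdkn2b 18, Bmp4 12 and Alb 3.
Id4, chr13:48260866-48261165, plus strand: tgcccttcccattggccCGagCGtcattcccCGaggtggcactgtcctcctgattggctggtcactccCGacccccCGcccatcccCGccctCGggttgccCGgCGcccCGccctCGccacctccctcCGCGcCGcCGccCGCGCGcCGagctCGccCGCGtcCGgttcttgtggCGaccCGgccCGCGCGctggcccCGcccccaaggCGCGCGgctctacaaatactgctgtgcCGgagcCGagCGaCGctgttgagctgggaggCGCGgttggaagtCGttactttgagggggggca
Cdkn2b, chr4:89310983-89311282, minus strand: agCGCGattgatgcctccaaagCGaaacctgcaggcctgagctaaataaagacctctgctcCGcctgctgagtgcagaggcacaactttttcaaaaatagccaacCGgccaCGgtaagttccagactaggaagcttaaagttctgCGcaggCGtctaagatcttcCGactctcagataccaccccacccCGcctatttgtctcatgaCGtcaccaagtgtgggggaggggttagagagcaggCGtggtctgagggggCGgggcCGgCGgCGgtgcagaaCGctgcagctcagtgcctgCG
Bmp4, chr14:46390620-46390919, minus strand: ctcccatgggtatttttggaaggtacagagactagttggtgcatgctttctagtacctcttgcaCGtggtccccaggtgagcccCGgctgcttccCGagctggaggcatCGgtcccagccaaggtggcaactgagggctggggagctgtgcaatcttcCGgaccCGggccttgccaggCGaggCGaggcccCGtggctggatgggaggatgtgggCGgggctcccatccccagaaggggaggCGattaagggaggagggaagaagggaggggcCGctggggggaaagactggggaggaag
Alb, chr5:90460620-90460919, plus strand: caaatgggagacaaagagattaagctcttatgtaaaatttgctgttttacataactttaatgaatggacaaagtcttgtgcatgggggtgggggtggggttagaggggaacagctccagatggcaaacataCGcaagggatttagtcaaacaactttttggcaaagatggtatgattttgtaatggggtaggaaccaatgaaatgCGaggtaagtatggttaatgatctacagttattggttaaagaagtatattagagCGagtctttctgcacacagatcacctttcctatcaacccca

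Among epithelial genes, Krt8, Dsp and Spint2 were lower in D2A1 and Cd24a was higher, and many luminal and basal genes were too low in both lines to be tested. Of 39 luminal and pan-epithelial genes 17 passed the filter on low counts, and 3 were large and higher in D2A1, 7 large and lower and 7 not large. A gene that is silent in 1 line passes that filter only through the other, so counts over tested members describe those members and are no evidence about the list. Krt8, a keratin of simple epithelia (chromosome 15, 101996698 to 102004482, minus strand), stood at 138, 73.7, 12.2 and 3.60 CPM in D2A1, against 889, 729, 977 and 717 CPM in EMT6. The desmoplakin gene Dsp had 12.2, 13.6, 0 and 0.496 CPM in D2A1, against 188, 165, 105 and 126 CPM in EMT6, and the protease inhibitor gene Spint2 30.1, 8.59, 1.06 and 0.683 CPM in D2A1, against 104, 91.4, 86.8 and 68.4 CPM in EMT6. D2A1 columns 1 and 2 held more of these transcripts than columns 3 and 4, and the lines did not overlap for any of the 3 genes. The log2 fold change of Krt8 was -4.15 ± 1.04, and -5.16 without D2A1 column 1 or -3.53 without column 4. Tested against a 2-fold threshold with edgeR's glmTreat, its adjusted p was 0.0573. For Dsp it was -5.46 ± 0.90, and -6.63 without column 2 or -4.10 without column 4. For Spint2 it was -4.10 ± 0.97, and -5.58 without column 1 or -2.89 without column 4. Esr1, the oestrogen receptor gene, was also lower, with 0.807 to 2.86 CPM in D2A1, against 26.3 to 31.3 CPM in EMT6. Cd24a, the gene of the heat-stable antigen used to sort mammary epithelium, went the other way with 147 ± 9.11 CPM in D2A1 and 1.33 ± 0.633 CPM in EMT6 (SD, n = 4 each), a log2 fold change of 6.78 ± 0.21 (edgeR adjusted p = 6.18e-11).

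The defining epithelial markers Epcam, Cdh1 and Krt5 were low in most libraries. Epcam stood at 10.0, 0.452, 1.59 and 0 CPM in D2A1, against 1.47, 3.06, 1.75 and 1.84 CPM in EMT6, and the E-cadherin gene Cdh1 at 78.0, 0, 1.59 and 0.0621 CPM in D2A1, against 0.307, 0.306, 0.302 and 0.184 CPM in EMT6. D2A1 column 1 stands apart at both. Cdh1 did not pass the filter, and Epcam had a large difference without that library (log2 fold change -3.06 in place of -0.45). Without D2A1 columns 1, 2 and 3 edgeR's estimate for Epcam was -8.06. It rests on column 4 alone, which held 0 counts of the gene, so its size is not fixed by the counts. The basal keratin gene Krt5 had 0 to 0.0621 CPM in D2A1 and 0 to 0.0614 CPM in EMT6, and the casein gene Csn3 0 to 0.807 CPM in D2A1 and 0 to 0.122 CPM in EMT6. Krt14, the other basal keratin gene, had 7.16, 0, 0 and 0.248 CPM in D2A1, against 2.15, 4.23, 3.74 and 3.12 CPM in EMT6. Its difference was not large (-1.93 ± 1.06), but was large without D2A1 column 1 (-4.05) and in the p27K high gate (-4.54). Vim, which encodes the mesenchymal filament vimentin, was abundant in both lines: 4572 to 4837 CPM in D2A1 and 4815 to 5826 CPM in EMT6, with overlapping libraries.

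Of 28 basal and myoepithelial genes 15 were tested, and 0 were large and higher in D2A1 and 7 large and lower. Acta2, the smooth muscle actin gene, stood at 4.30, 17.2, 15.4 and 19.1 CPM in D2A1, against 677, 409.9, 405 and 633 CPM in EMT6, a log2 fold change of -5.05 ± 0.35. Sfn, which encodes the checkpoint protein 14-3-3 sigma, stood at 9.31, 2.26, 1.59 and 2.23 CPM in D2A1, against 95.6, 81.8, 98.9 and 80.1 CPM in EMT6 (-4.99 ± 0.30). Trp63, the gene of the basal factor p63, had 0 to 1.06 CPM in D2A1, against 15.8 to 23.8 CPM in EMT6, and the receptor gene Egfr had 0 to 2.71 CPM in D2A1, against 26.0 to 36.7 CPM in EMT6 (-4.92 ± 0.31). All 4 genes are lower in each D2A1 library than in any EMT6 library. Among 27 tested mesenchymal state genes 2 were large and higher in D2A1 and 5 lower. The lower ones include podoplanin, Pdpn, with 2.15, 21.2, 4.77 and 1.49 CPM in D2A1, against 284, 157, 231 and 169 CPM in EMT6, and the tropomyosin gene Tpm2, with 7.88, 15.8, 10.1 and 1.92 CPM in D2A1, against 209.9, 149, 173 and 171 CPM in EMT6. D2A1 column 2 was the highest of its line for both. Of the 2 higher ones, Postn, the periostin gene, had 68.0, 35.7, 66.2 and 37.4 CPM in D2A1, against 13.4, 0.367, 3.92 and 2.39 CPM in EMT6. Its log2 fold change was 3.31 ± 0.87, and 4.45 without EMT6 column 0, and its call is lost by glmTreat (adjusted p = 0.0763). In the p27K high gate it was higher in D2A1 by less than 4-fold (1.79). Fn1, which encodes fibronectin, was higher in D2A1 by less than 4-fold, with 7758 ± 455 CPM in D2A1 and 3545 ± 640.1 CPM in EMT6 (SD, n = 4 each).

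Of 65 transcription factors that set cell fate (SOX, GATA, TBX, homeobox and others) 35 were tested, with 9 large and higher in D2A1 and 8 lower, beside 5.77% and 6.07% of all genes tested. Sox2, the pluripotency and neural stem cell factor (chromosome 3, 34650405 to 34652461, plus strand), stood at 134, 159.6, 136 and 135 CPM in D2A1, against 0, 0, 0.0603 and 0.184 CPM in EMT6. The EMT6 libraries held 4 counts of it in all. Gata4, a factor of endoderm and heart, stood at 38.7, 20.8, 23.8 and 28.4 CPM in D2A1, against 0, 0.0612, 0 and 0 CPM in EMT6. Tbx3, a T-box factor of the mammary bud, stood at 53.0, 62.8, 60.4 and 54.6 CPM in D2A1, against 0, 0.0612, 0.0603 and 0.122 CPM in EMT6, a log2 fold change of 9.63 ± 0.25. Among homeobox factors, Dlx5 had 9.49 to 16.3 against 0 CPM, Lmx1b 7.68 to 10.1 against 0 to 0.0612 CPM and Pitx1 17.6 to 22.3 against 0.0603 to 0.184 CPM, in D2A1 and EMT6. Each of these factors was detected in every D2A1 library, which the rule of choice required for some of them, Gata4, Dlx5 and Lmx1b among them. Klf4, at 303 to 396 CPM in D2A1 and 259 to 314 CPM in EMT6, is the member of the highest mean and did not have a large difference.

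Of 39 HOX genes 11 were tested, 4 large and higher in D2A1 and 2 lower. Hoxa2, Hoxa3 and Hoxa7, of the Hoxa cluster on chromosome 6, stood at 7.23 to 14.3 against 1.28 to 1.60 CPM, 9.04 to 22.4 against 1.87 to 3.44 CPM and 24.9 to 37.2 against 5.43 to 7.12 CPM in D2A1 and EMT6. Hoxa5 of the same cluster was higher by less than 4-fold (44.7 to 65.9 against 20.2 to 23.1 CPM). After thinning every library to the depth of the smallest, Hoxa3 and Hoxa7 did not have a large difference (edgeR adjusted p = 0.119 and 0.247). Among 14 tested factors and cadherins of the epithelial-mesenchymal transition 4 were large and higher in D2A1 and 2 lower. Snai2, which represses E-cadherin, had 14.3, 17.6, 11.7 and 11.4 CPM in D2A1, against 2.21, 2.33, 2.35 and 1.77 CPM in EMT6 (2.63 ± 0.23), and Zeb1, another such repressor, 59.4, 61.5, 61.5 and 62.1 CPM in D2A1, against 10.1, 13.7, 12.4 and 17.0 CPM in EMT6 (2.20 ± 0.14). The call of Snai2 is lost after thinning (edgeR adjusted p = 0.138). Cdh11, the cadherin of mesenchymal cells and osteoblasts, had 52.0 to 68.9 CPM in D2A1, against 0.0603 to 0.675 CPM in EMT6, whereas the intestinal cadherin gene Cdh17 was lower with 0, 9.49, 2.65 and 5.46 CPM in D2A1, against 33.8, 28.6, 32.8 and 28.4 CPM in EMT6 (-2.60 ± 0.36).

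**Figure D2:**
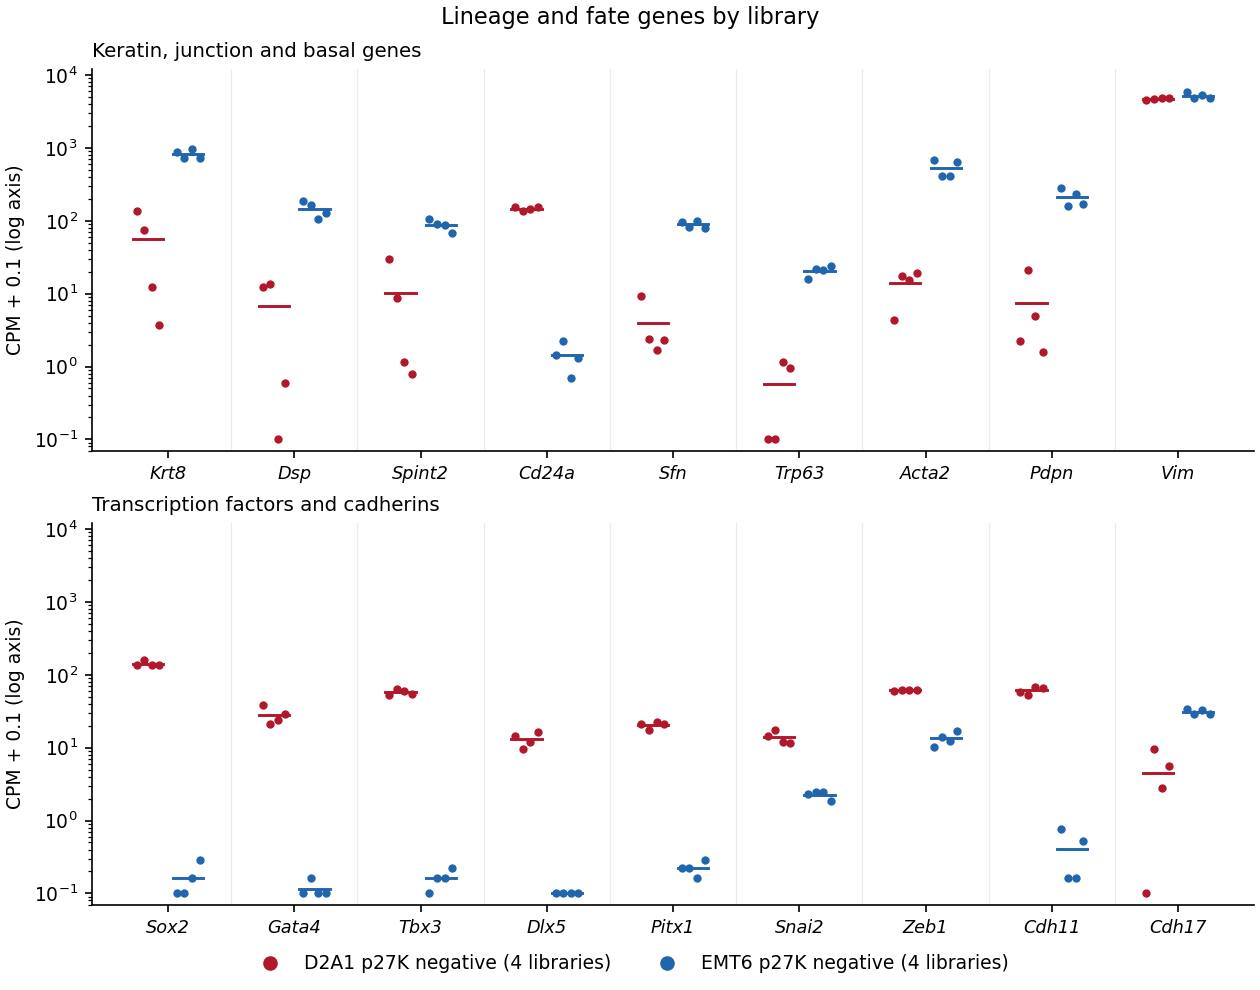
CPM plus 0.1 on a log axis for 18 lineage and fate genes, with 1 point per library and a bar at the mean, D2A1 in red and EMT6 in blue. The D2A1 points of Krt8 spread from 3.60 to 138 CPM, Sox2 sits near 0 in EMT6, and the Vim points of the lines overlap.

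The extracellular matrix genes differed in kind between the lines: EMT6 carried more fibrillar collagen I and III and their cross-linking enzyme, and D2A1 more collagens IV and VI. Of 13 tested fibrillar and FACIT collagens 4 were large and higher in D2A1 and 5 lower. Col1a2 (chromosome 6, 4504814 to 4541544, plus strand) stood at 126, 138, 118 and 109 CPM in D2A1, against 4186, 4054, 3459.7 and 4519.7 CPM in EMT6, a log2 fold change of -5.06 ± 0.11 (edgeR adjusted p = 2.45e-14). Col1a1 had 188, 119, 215 and 161 CPM in D2A1, against 1181, 1453, 1149 and 1688 CPM in EMT6 (-3.01 ± 0.21) and Col3a1 112, 66.4, 132 and 129.9 CPM in D2A1, against 813, 1273, 850.0 and 1466 CPM in EMT6 (-3.31 ± 0.31). All 3 are chains of the collagens of connective tissue, and all D2A1 libraries are below all EMT6 libraries. In the p27K high gate Col1a2 stood at 3.48 to 24.6 CPM in D2A1, against 4258 to 5699.6 CPM in EMT6, so its D2A1 level is lower there than in the negative gate. Col27a1, a cartilage collagen, was higher with 17.6 to 24.3 CPM in D2A1, against 0.612 to 1.29 CPM in EMT6 (4.68 ± 0.26).

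Among 26 tested basement membrane and other collagens and laminins 10 were large and higher in D2A1 and 2 lower, beside 5.77% and 6.07% of all genes tested, with a median of 0.73. Col6a3, a chain of microfibrillar collagen VI, stood at 1174, 912, 1258 and 776 CPM in D2A1, against 6.57, 3.43, 1.75 and 9.30 CPM in EMT6 (7.61 ± 0.53). Col6a5, another chain of that family (chromosome 9, 105856078 to 105960643, minus strand), stood at 312, 271, 308 and 274 CPM in D2A1, against 0.0614, 0, 0 and 0 CPM in EMT6, with 1 count over the EMT6 libraries. The basement membrane chains Col4a1 and Col4a2 had 64.2 to 159.7 against 1.45 to 5.22 CPM (5.10 ± 0.50) and 90.9 to 179 against 0.663 to 2.52 CPM (6.42 ± 0.38). Lamb1, a laminin chain, did not have a large difference (799.6 to 901 CPM in D2A1 and 631 to 814 CPM in EMT6). For Col6a3, Col4a1 and Col4a2 no EMT6 library reached the level of any D2A1 library. The same holds for Col6a5, but there it was part of the rule by which the gene was named.

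Enzymes that cut, inhibit or cross-link the matrix were also unequal, 11 large and higher in D2A1 and 7 lower among 50 tested. The collagen cross-linking enzyme gene Lox stood at 7.88, 4.97, 12.2 and 11.5 CPM in D2A1, against 178, 306, 257 and 353 CPM in EMT6 (-4.77 ± 0.32), and its relative Loxl2 at 5.73, 2.71, 7.95 and 3.23 CPM in D2A1, against 92.6, 85.2, 93.0 and 114 CPM in EMT6 (-4.58 ± 0.22). D2A1 had the higher level of the metalloproteinase inhibitor Timp3, at 127, 139.7, 136 and 158 CPM in D2A1, against 1.23, 0.612, 0.844 and 1.47 CPM in EMT6 (7.07 ± 0.17). Mmp9, a gelatinase, had 167, 178, 129 and 190.5 CPM in D2A1, against 2.03, 0.919, 1.03 and 1.16 CPM in EMT6 (7.02 ± 0.20), and Mmp10, stromelysin-2, 115, 143, 88.5 and 90.1 CPM in D2A1, against 3.99, 0.184, 1.15 and 0.245 CPM in EMT6. EMT6 column 0 had the highest EMT6 level of Mmp10, and its log2 fold change of 6.27 ± 0.70 became 7.63 without that library. Serpinh1, the collagen chaperone gene, did not have a large difference (1017 to 1175 CPM in D2A1 and 890.1 to 1061 CPM in EMT6).

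Of 48 tested proteoglycans and matricellular genes 9 were large and higher in D2A1 and 10 lower. Ogn, a small leucine-rich proteoglycan, stood at 22.9, 28.0, 30.7 and 10.2 CPM in D2A1, against 279, 483, 461 and 603 CPM in EMT6 (-4.55 ± 0.46), and Tgfbi, a TGF-beta induced adhesion protein, at 2.15, 4.52, 2.65 and 2.79 CPM in D2A1, against 85.5, 35.5, 40.3 and 70.2 CPM in EMT6 (-4.28 ± 0.46). Ctgf, a matricellular target of YAP and TGF-beta, had 32.9, 0.904, 3.71 and 2.67 CPM in D2A1, against 178, 273, 211 and 397 CPM in EMT6. Its log2 fold change was -5.54 ± 0.84, and -6.70 without D2A1 column 1 or -4.67 without column 4. Spp1, which encodes osteopontin, was higher in D2A1 by less than 4-fold, with 4778 ± 257 CPM in D2A1 and 2160.1 ± 106 CPM in EMT6 (SD, n = 4 each). Among 18 tested integrins 4 were large and higher in D2A1 and 2 lower. The collagen receptor genes Itga1 and Itga10 had 82.3 to 99.5 against 3.25 to 15.2 CPM and 11.9 to 17.2 against 1.84 to 2.81 CPM. Without EMT6 column 0 the log2 fold change of Itga1 was 4.53 in place of 3.74 ± 0.53, and that of Itga10 was 2.66 ± 0.23. Itga10 did not have a large difference after thinning (edgeR adjusted p = 0.157).

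Fibroblasts express many of the same matrix genes, so their markers are given here. The summed level of 25 fibroblast and pericyte markers, Col1a1, Col1a2 and Col3a1 among them, was 982 to 1161 CPM in D2A1 and 6389 to 8643 CPM in EMT6. Those collagen genes, with EMT6 means of 1368, 4055 and 1100.4 CPM, made up most of the EMT6 sum. The sum therefore largely restates the collagen difference. Of 17 tested genes of the list 3 were large and higher in D2A1 and 5 lower, with a median log2 fold change of -0.29. Dcn and Thy1, other genes of that list, had large differences in edgeR's test, with 19.7 to 57.2 against 4.29 to 13.7 CPM and 4.16 to 9.54 against 0 to 1.90 CPM, and Lum had 2.26 to 4.30 against 0.306 to 1.41 CPM. The log2 fold change of Dcn was 2.21 ± 0.50, and its call is lost without EMT6 column 1 (1.96), without D2A1 columns 1, 2 and 3 (1.10, edgeR adjusted p = 0.166), after thinning (1.99) and by glmTreat (adjusted p = 0.0695). For Thy1 the value was 2.83 ± 0.81, and 3.60 without EMT6 column 0, and its call is lost with no filter on low counts (edgeR adjusted p = 0.0595), by glmTreat (0.0909) and without D2A1 columns 1, 2 and 3 (0.186). Lum has a large difference without EMT6 column 4 (2.11 in place of 1.75 ± 0.43). In bulk RNA, fewer cells of a type and less RNA per cell cannot be told apart, and the part of host cells in the matrix differences was not tested.

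Signalling genes were compared pathway by pathway, ligands before receptors and targets. In the TGF-beta, BMP and activin pathway 8 of 42 tested genes were large and higher in D2A1 and 5 lower, with a median of 0.14. Besides the ligand Bmp4, the stress-induced ligand Gdf15 was lower, with 0, 0.904, 0.530 and 0.558 CPM in D2A1, against 54.6, 54.7, 56.0 and 46.0 CPM in EMT6 (-6.54 ± 0.23), as was Fst, which encodes the activin-binding protein follistatin, with 9.31, 24.4, 13.2 and 19.9 CPM in D2A1, against 219, 115, 136 and 99.9 CPM in EMT6 (-2.98 ± 0.36). The BMP antagonist Grem1 was higher, with 11.5, 4.52, 9.01 and 2.98 CPM in D2A1, against 0 to 0.368 CPM in EMT6 (4.96 ± 0.63). In the p27K high gate Grem1 was near 0 in both lines, at 0 to 0.211 and 0.0603 to 0.206 CPM, and was not tested there. Id4, a target of BMP signals in many cells, stood at 33.7, 24.9, 17.5 and 32.1 CPM in D2A1, against 0, 0.0612, 0 and 0.0612 CPM in EMT6, and the pseudoreceptor gene Bambi at 4.30 to 7.95 CPM in D2A1, against 0 CPM in EMT6. Ltbp1, which holds latent TGF-beta in the matrix, was the member of the highest mean and differed by less than 4-fold (372 to 444 against 247 to 346 CPM).

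In the WNT pathway 7 of 35 tested genes were large and higher in D2A1 and 7 lower. The ligand genes Wnt10a, Wnt10b and Wnt6 were lower in D2A1: Wnt10a stood at 1.43, 4.52, 0 and 0.0621 CPM in D2A1, against 75.7, 90.1, 89.0 and 86.6 CPM in EMT6, Wnt10b at 0, 6.78, 0 and 0.248 CPM in D2A1, against 31.9, 29.2, 32.0 and 29.1 CPM in EMT6 and Wnt6 at 0, 0, 0.530 and 0.434 CPM in D2A1, against 5.34, 7.53, 6.82 and 6.24 CPM in EMT6. Wnt6 and Wnt10a lie side by side on chromosome 1. D2A1 column 2 held most of the few D2A1 reads of Wnt10a and Wnt10b, whose log2 fold changes were -6.99 ± 0.65 and -4.89 ± 0.80. Without that library they were -8.99 and -7.16, and without D2A1 column 4 -5.29 and -3.51. For Wnt6 the value was -4.14 ± 0.42, and -5.07 without D2A1 column 4. Of the receptors, Fzd3 was found in D2A1 (7.42 to 13.1 against 0 CPM) and Fzd8 in EMT6. Nkd2, an inhibitor of WNT and dishevelled signalling, stood at 50.8, 48.8, 63.1 and 41.4 CPM in D2A1, against 0.246, 0, 0 and 0.0612 CPM in EMT6.

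Among ligands and receptors of tyrosine kinases 8 of 50 tested genes were large and higher in D2A1 and 4 lower, with a median of -0.00. Of the EGF-family ligands, Ereg, epiregulin, stood at 102, 111, 89.0 and 132 CPM in D2A1, against 9.58, 2.08, 2.17 and 1.59 CPM in EMT6 and Nrg1, neuregulin, at 31.5, 21.2, 23.3 and 21.2 CPM in D2A1, against 0.123, 0.245, 0.181 and 0.428 CPM in EMT6 (6.54 ± 0.30). EMT6 column 0 was the highest EMT6 library for Ereg, and its log2 fold change of 4.83 ± 0.59 became 5.82 without it. The neurotrophic ligand Gdnf was higher with 46.5 to 56.0 CPM in D2A1, against 6.37 to 7.84 CPM in EMT6 (2.92 ± 0.12), while Bdnf was lower with 9.54 to 11.3 CPM in D2A1, against 77.1 to 89.4 CPM in EMT6 (-2.98 ± 0.12). Ephb6, an ephrin receptor gene, stood at 46.6 to 70.7 CPM in D2A1, against 0.241 to 0.489 CPM in EMT6 (7.32 ± 0.21). The epiregulin receptor gene Egfr, by contrast, was at most 2.71 CPM in D2A1. Axl, the receptor of the highest mean, had overlapping libraries, at 619 to 809 CPM in D2A1 and 629 to 733 CPM in EMT6. Of 37 tested regulators of RAS, ERK and PI3K signals 0 were large and higher in D2A1 and 1 was lower, the ERK phosphatase gene Dusp5, with 20.0, 20.8, 10.1 and 15.3 CPM in D2A1, against 84.1, 101, 128 and 94.7 CPM in EMT6 (-2.66 ± 0.19).

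Of 6 tested genes of the IGF binding proteins and their RNA-binding namesakes 1 was large and higher in D2A1 and 3 lower. Igfbp6 had 23.6, 28.0, 26.5 and 17.1 CPM in D2A1, against 345, 261, 341 and 255 CPM in EMT6 (-3.76 ± 0.18), Igfbp7 25.1, 20.8, 11.1 and 9.06 CPM in D2A1, against 117, 158, 131 and 146 CPM in EMT6 (-3.32 ± 0.30), and the oncofetal RNA-binding protein gene Igf2bp1 7.16, 9.49, 2.12 and 1.55 CPM in D2A1, against 60.9, 80.0, 73.9 and 78.7 CPM in EMT6. In the Notch and Hedgehog pathways 7 of 25 tested genes were large and higher in D2A1 and 3 lower. The Notch ligand Dll1 stood at 10.7, 14.5, 7.95 and 21.8 CPM in D2A1, against 0.184, 0.0612, 0.0603 and 0.306 CPM in EMT6 (6.50 ± 0.44), the receptor Notch4 at 20.0 to 27.9 CPM in D2A1, against 0.181 to 1.16 CPM in EMT6 (5.06 ± 0.34) and the Notch target Hey1 at 25.1 to 39.1 CPM in D2A1, against 0 to 0.245 CPM in EMT6. Of the Hedgehog genes, the transcription factor Gli2 had 10.0 to 20.1 CPM in D2A1, against 0 to 0.307 CPM in EMT6 (6.68 ± 0.42) and the coreceptor Gas1 155 to 208 CPM in D2A1, against 11.1 to 16.8 CPM in EMT6 (3.59 ± 0.14), while the coreceptor Boc was lower with 0.716 to 3.16 CPM in D2A1, against 26.3 to 32.7 CPM in EMT6 (-4.41 ± 0.25). The receptor Notch2, the member of the highest mean, had overlapping libraries (232 to 286 CPM in D2A1 and 209 to 294 CPM in EMT6).

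Brakes of the cell cycle included large differences in both directions, 2 higher in D2A1 and 4 lower of 36 tested. Cdkn2a, which encodes the inhibitor p16 and ARF (chromosome 4, 89274471 to 89294653, minus strand), stood at 170.4, 160.5, 174 and 179 CPM in D2A1, against 3.99, 2.63, 3.56 and 5.38 CPM in EMT6, a log2 fold change of 5.46 ± 0.16 (edgeR adjusted p = 2.14e-12). Its neighbour Cdkn2b, the p15 gene, stood at 12.2, 12.2, 15.4 and 20.2 CPM in D2A1, against 0, 0.0612, 0 and 0 CPM in EMT6, with 1 count over the EMT6 libraries. Mtap, a nearby gene that is often lost with them in tumours, was present in both lines at 132 to 174 CPM in D2A1, against 209 to 239 CPM in EMT6. Trp53, the p53 gene (chromosome 11, 69580359 to 69591873, plus strand), stood at 33.7, 37.5, 30.2 and 33.4 CPM in D2A1, against 143, 163, 152 and 144 CPM in EMT6 (-2.16 ± 0.10, edgeR adjusted p = 6.7e-11). The death receptor gene Tnfrsf10b, a p53 target, was lower as well, with 7.95 to 18.1 CPM in D2A1, against 56.8 to 59.8 CPM in EMT6 (-2.13 ± 0.15).

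**Figure D3:**
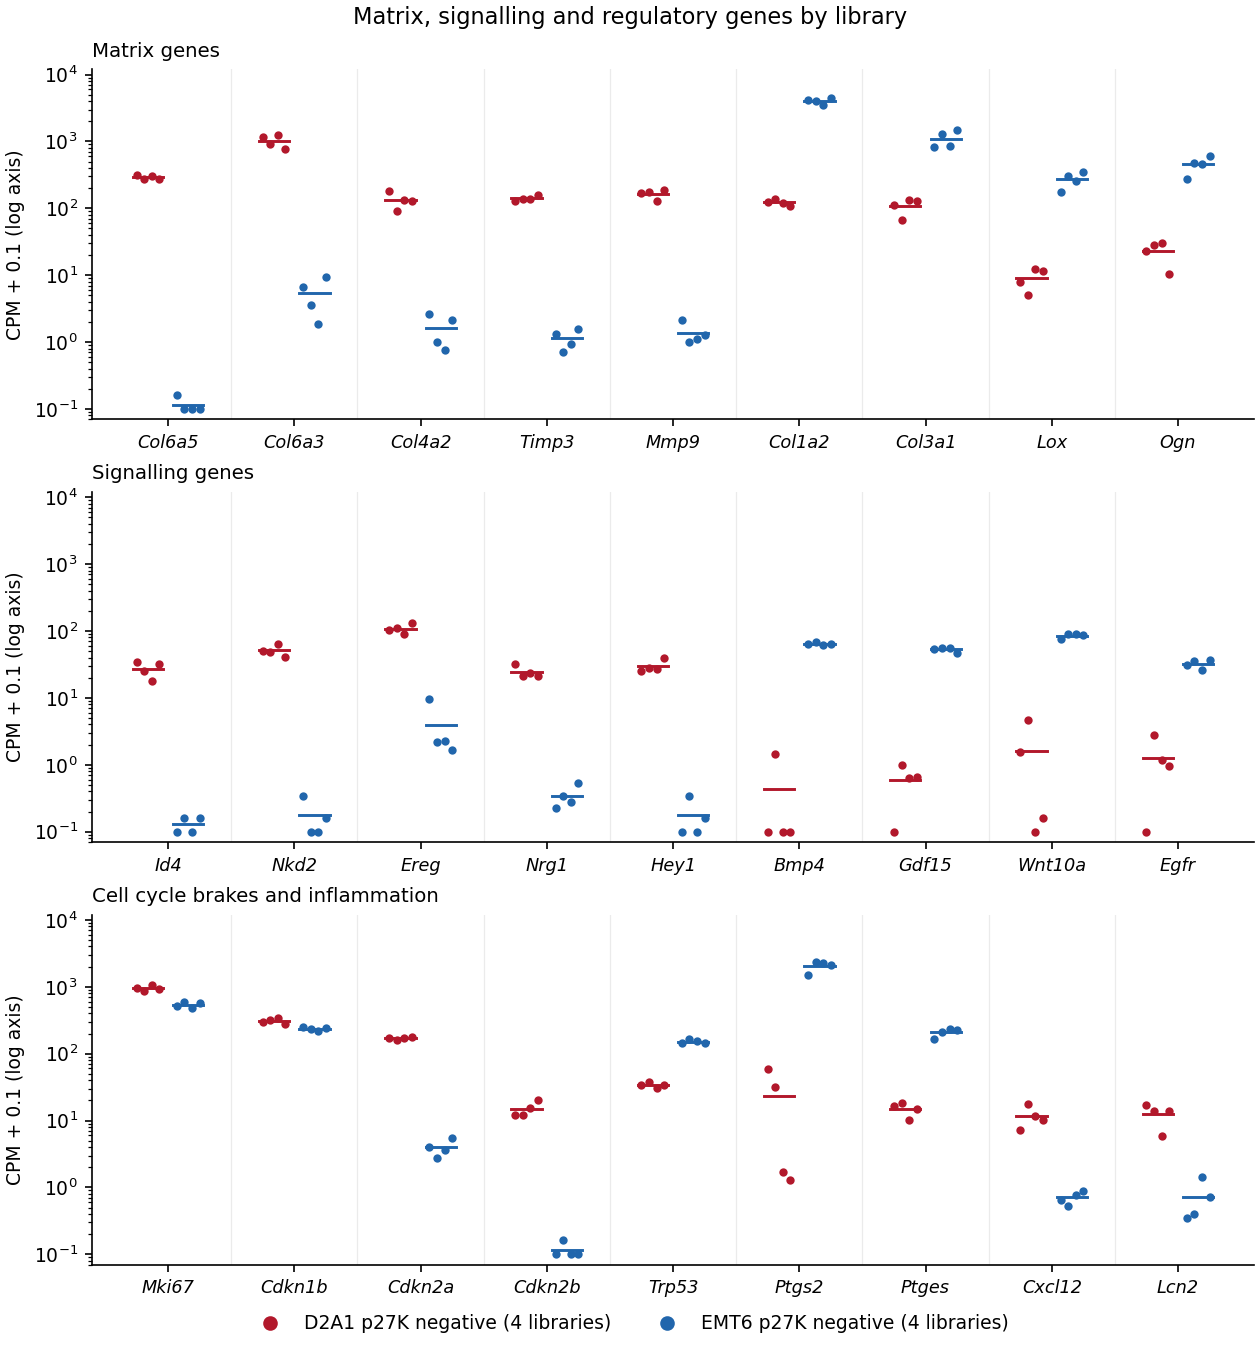
CPM plus 0.1 on a log axis for 27 genes of the matrix, of signalling and of cell cycle brakes and inflammation, with 1 point per library and a bar at the mean, D2A1 in red and EMT6 in blue. Mki67 and Cdkn1b differ by less than 4-fold, Cdkn2a is at 160.5 to 179 CPM in D2A1 and 2.63 to 5.38 CPM in EMT6, and the D2A1 points of Ptgs2 spread from 1.18 to 58.0 CPM.

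Of 31 tested NF-kB targets and acute phase genes 5 were large and higher in D2A1 and 7 lower. Ptgs2, which encodes the prostaglandin synthase COX-2, stood at 58.0, 32.1, 1.59 and 1.18 CPM in D2A1, against 1489, 2367, 2267 and 2092 CPM in EMT6. D2A1 columns 1 and 2 were the higher ones, and the log2 fold change of -7.08 ± 1.11 was -8.20 without column 1, -7.71 without column 2 and -6.15 without column 4. Ptges, the prostaglandin E synthase gene that acts after it, stood at 16.5, 18.5, 10.1 and 14.7 CPM in D2A1, against 164, 214, 237 and 225 CPM in EMT6 (-3.82 ± 0.16). The nitric oxide synthase gene Nos2 had 0.716, 2.26, 0.530 and 1.30 CPM in D2A1, against 11.8, 13.4, 27.1 and 37.7 CPM in EMT6 (-4.11 ± 0.63), and its call is lost in limma-voom (adjusted p = 0.0638). Higher in D2A1 were the iron-binding lipocalin Lcn2, with 17.2, 13.6, 5.83 and 13.8 CPM in D2A1, against 0.246, 0.306, 1.33 and 0.612 CPM in EMT6, and several chemokines. Without EMT6 column 2 the log2 fold change of Lcn2 was 4.97 in place of 4.31 ± 0.46.

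Among 20 tested chemokines 6 were large and higher in D2A1 and 4 lower. The monocyte attractant Ccl2 stood at 15.8, 20.3, 14.8 and 19.3 CPM in D2A1, against 2.09, 0.796, 0.905 and 1.22 CPM in EMT6 (3.82 ± 0.28), the CXCR4 ligand Cxcl12 at 7.16, 17.6, 11.7 and 10.1 CPM in D2A1, against 0.553, 0.429, 0.663 and 0.795 CPM in EMT6 (4.23 ± 0.33) and the CXCR3 ligand Cxcl11 at 4.30, 7.68, 2.12 and 10.5 CPM in D2A1, against 0.246, 0.245, 0.362 and 0.489 CPM in EMT6 (4.34 ± 0.44). The neutrophil attractant Cxcl1 did not have a large difference (104 to 151 CPM in D2A1 and 135 to 178 CPM in EMT6), whereas Cxcl5 was lower with 12.2, 37.1, 6.89 and 5.15 CPM in D2A1, against 58.0, 92.8, 109 and 131 CPM in EMT6. The log2 fold change of Cxcl5 was -2.96 ± 0.68, -3.94 without D2A1 column 2 and -2.31 without column 4, and by glmTreat its adjusted p was 0.0533. Of 46 tested interleukins, leukocyte growth factors and receptors 4 were large and higher in D2A1 and 9 lower. Il1rl1, the receptor of interleukin-33, stood at 100.2, 108, 70.0 and 67.8 CPM in D2A1, against 993, 682, 1183 and 699 CPM in EMT6 (-3.39 ± 0.27), and the oncostatin M receptor gene Osmr at 7.88, 8.59, 4.77 and 7.63 CPM in D2A1, against 106, 125, 100.2 and 124 CPM in EMT6 (-3.94 ± 0.15). Il33 itself stood at 2.86, 2.26, 4.77 and 2.36 CPM in D2A1, against 328, 41.1, 55.1 and 61.2 CPM in EMT6, with EMT6 column 0 far above the other EMT6 libraries, and its log2 fold change was -4.31 without that library in place of -5.50 ± 1.24. The call of Il33 is lost in limma-voom (adjusted p = 0.0595) and without D2A1 columns 1, 2 and 3 (edgeR adjusted p = 0.166). Csf1, the macrophage growth factor gene, differed by less than 4-fold (350.3 to 495 CPM in D2A1 and 473 to 635 CPM in EMT6).

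Of 52 tested interferon-stimulated genes 1 was large and higher in D2A1 and 4 lower, which is 9.62% beside 11.8% of all genes, a share near that background. The lower ones include Ifih1, a sensor of viral RNA, with 6.44, 5.88, 1.59 and 2.48 CPM in D2A1, against 34.4, 52.4, 70.8 and 59.1 CPM in EMT6 (-4.05 ± 0.39), Cmpk2 with 0 to 2.86 CPM in D2A1, against 20.7 to 56.2 CPM in EMT6 and Rsad2, the viperin gene, with 0 to 3.16 CPM in D2A1, against 24.3 to 89.9 CPM in EMT6. Without D2A1 columns 1, 2 and 3 the call of Rsad2 is lost (edgeR adjusted p = 0.0617). Of 31 MHC class I and antigen processing genes 1 was large and higher in D2A1 and 0 lower, and B2m, the light chain of class I, stood at 1805 to 2777 CPM in D2A1 and 2104 to 2866 CPM in EMT6. Among 30 tested checkpoint ligands and suppressive factors 4 were large and higher in D2A1 and 7 lower. Nt5e, which encodes the adenosine-forming enzyme CD73, stood at 412, 403, 404 and 336 CPM in D2A1, against 44.8, 75.3, 89.8 and 71.0 CPM in EMT6 (2.46 ± 0.20). Lgals9, which encodes galectin-9, stood at 23.6, 15.8, 24.9 and 28.9 CPM in D2A1, against 82.5, 101, 116 and 113 CPM in EMT6, and its log2 fold change of -2.08 ± 0.16 falls under 4-fold without D2A1 column 2 (-1.95), without columns 1, 2 and 3 (-1.85) and with total count scaling (-1.96). Lgals1 did not have a large difference (2269 to 2629 CPM in D2A1 and 2565 to 3236 CPM in EMT6).

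Of 39 tested genes of hypoxia and glycolysis 0 were large and higher in D2A1 and 9 lower, with a median of -1.03. At an adjusted p under 0.05 with no minimum fold, edgeR called 3 of the 39 higher and 31 lower. Car9, a carbonic anhydrase induced by HIF, stood at 0, 1.36, 1.06 and 0.807 CPM in D2A1, against 55.4, 65.7, 76.3 and 77.9 CPM in EMT6 (-6.34 ± 0.25), and the lactate exporter gene Slc16a3 at 4.30, 10.4, 2.65 and 2.17 CPM in D2A1, against 231, 270.1, 302 and 313 CPM in EMT6. Adm, adrenomedullin, had 0, 6.78, 0 and 1.05 CPM in D2A1, against 106, 97.8, 140.1 and 108 CPM in EMT6, and the HIF hydroxylase gene Egln3 8.59, 5.42, 4.77 and 13.0 CPM in D2A1, against 101, 129, 116 and 127 CPM in EMT6. Without D2A1 column 4 the log2 fold changes of Slc16a3, Adm and Egln3 were -5.51, -5.38 and -4.29, in place of -6.28 ± 0.38, -6.16 ± 0.53 and -3.59 ± 0.23, and without column 2 that of Adm was -7.04. Pkm, the pyruvate kinase gene, did not have a large difference (3229 to 3681 CPM in D2A1 and 3537 to 3813 CPM in EMT6). Of 56 tested genes of the NRF2 response, glutathione and aldehyde metabolism 7 were large and higher in D2A1 and 11 lower. The carbonyl reductase gene Cbr1 stood at 22.2, 31.6, 27.6 and 26.6 CPM in D2A1, against 0.246, 0.122, 0.121 and 0.306 CPM in EMT6 (7.02 ± 0.28), and Gsta4, a glutathione transferase of lipid aldehydes, at 12.2, 23.1, 7.42 and 6.83 CPM in D2A1, against 154, 228, 242 and 206 CPM in EMT6 (-4.30 ± 0.39).

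Genes of X inactivation, imprinting and the germline gave a few of the widest gaps. Xist, the RNA that coats the inactive X chromosome, stood at 90.9, 134, 122 and 70.9 CPM in D2A1, against 1.29, 0.429, 1.03 and 1.10 CPM in EMT6 (6.72 ± 0.31). The X-linked homeobox gene Rhox5, normally a gene of the gonads and placenta, stood at 204, 213, 244 and 208 CPM in D2A1, against 0.246, 0.429, 0.362 and 0.856 CPM in EMT6 (8.81 ± 0.19). It was the 1 large gene of 2 tested among 48 cancer-testis and germline genes. Sgce, an imprinted sarcoglycan gene, was lower with 0, 0.904, 0.530 and 0.186 CPM in D2A1, against 42.8, 18.9, 21.7 and 24.5 CPM in EMT6, a log2 fold change of -6.51 ± 0.55, and -5.60 without D2A1 column 4. Of 15 tested imprinted and X inactivation genes 5 were large and higher in D2A1 and 1 lower.

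**Figure D4:**
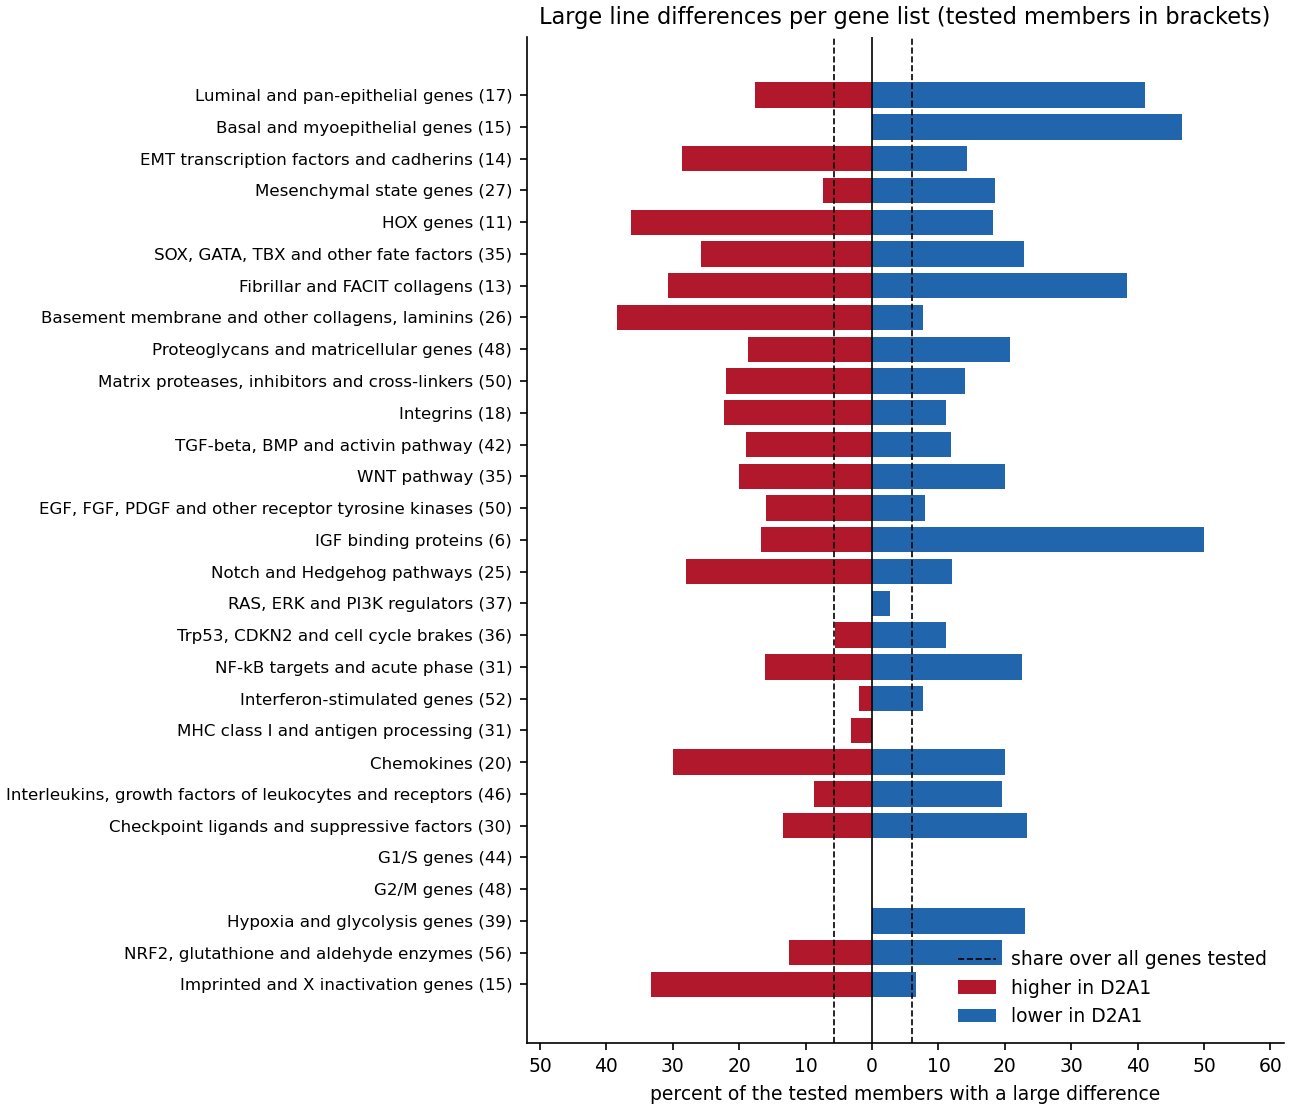
Percent of the tested members of 29 gene lists with a large difference, higher in D2A1 to the left in red and lower to the right in blue, with tested members in brackets. Dashed lines mark 5.77% and 6.07%, the shares over all genes tested: no G1/S or G2/M gene passed, and all large basal and hypoxia genes lie on the lower side.

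Markers of cells other than the tumour line were summed per library and compared with a two-sided exact permutation test over samples, in 12 lists, where 0.0286 is the smallest p that 4 against 4 allows. Macrophage and monocyte markers summed to 92.4 to 154 CPM in D2A1 and 60.1 to 78.6 CPM in EMT6 (exact p = 0.0286, adjusted 0.0381). Their leading gene Cd14 had 43.5 to 71.0 against 7.55 to 12.9 CPM. In D2A1 columns 1, 2, 3 and 4 it took 58.0, 71.0, 43.5 and 65.2 CPM of 92.4, 154, 93.3 and 127 CPM. The sum without Cd14 was not tested. Apoe, the other leading gene, went the other way with 5.73 to 13.2 against 21.4 to 24.7 CPM. Ptprc, the gene of CD45, which was stained before the sort, had 0 to 2.65 CPM in D2A1 and 0.184 to 0.245 CPM in EMT6. C1qa had 1.43 to 3.85 against 0.734 to 0.982 CPM. C1qa has a large difference without D2A1 columns 1, 2 and 3 (log2 fold change 2.15 in place of 1.74). Neutrophil markers summed to 134 to 193 CPM in D2A1 and 2.14 to 4.67 CPM in EMT6, of which Mmp9 made up 129 to 190.5 CPM in D2A1 and 0.919 to 2.03 CPM in EMT6. MHC class II and dendritic cell markers were lower in D2A1, at 10.0 to 23.2 CPM against 47.2 to 565 CPM, and Cd74 ranged from 23.5 to 289.9 CPM among EMT6 libraries. The log2 fold change of Cd74, -5.47 ± 1.12, was -6.95 without D2A1 column 4 and -4.83 without EMT6 column 2. The call of Cd74 is lost in limma-voom (adjusted p = 0.0978) and without D2A1 columns 1, 2 and 3 (edgeR adjusted p = 0.155). Endothelial markers summed to 23.1 to 46.5 CPM in D2A1 and 9.43 to 22.8 CPM in EMT6. In EMT6 column 0 Cdh5, the VE-cadherin gene, reached 11.2 CPM, and it has a large difference without that library (log2 fold change 3.19 in place of 0.44 ± 1.37) and in limma-voom (2.77). In the p27K high gate the endothelial sums were 7.17 to 17.4 CPM in D2A1 and 8.93 to 17.3 CPM in EMT6.

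The T and NK sums were 2.86 to 4.24 CPM in D2A1 and 11.8 to 15.8 CPM in EMT6, with Lck making up most of the EMT6 value (1.43 to 2.71 against 10.2 to 13.5 CPM). Erythroid and platelet markers summed to 2.86 to 6.89 CPM against 10.1 to 14.1 CPM. Most of the EMT6 value was Itga2b (1.43 to 5.30 against 6.76 to 9.12 CPM). Glial and neuronal markers summed to 61.4 to 88.5 CPM against 134 to 194 CPM. Most of that sum in both lines was Ncam1 (46.4 to 60.4 against 92.5 to 152 CPM). Sums of the macrophage, neutrophil, class II, T and NK, endothelial, fibroblast, erythroid and glial lists, and of Y-linked genes (at most 0.0621 and 0.306 CPM), did not overlap between the lines and had the same p. Among all single genes tested, 53.2% did not overlap between the lines either. Several of the sums were carried by 1 gene, as given for each, so they are no measure of host cells. B and plasma cell (exact p = 0.314), adipocyte (exact p = 0.457) and muscle markers (exact p = 0.114) missed the threshold. All of these sums but the class II and fibroblast ones stayed under 200 CPM in every library. The part of host cells in the line differences was not tested.

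**Figure D5:**
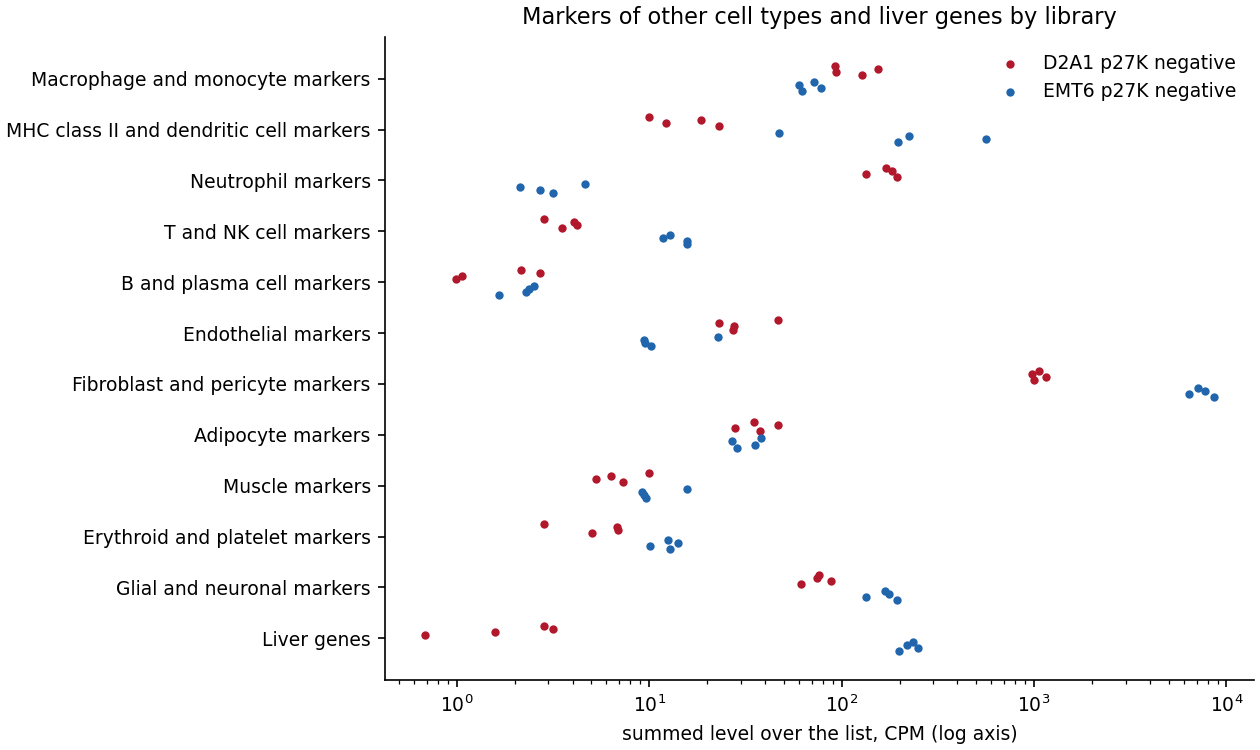
Summed CPM on a log axis of 11 marker lists and of 36 liver genes, with 1 point per library, D2A1 in red above EMT6 in blue. Fibroblast sums lie at 982 to 1161 CPM in D2A1 and 6389 to 8643 CPM in EMT6, and liver genes at 0.683 to 3.16 CPM and 199 to 249 CPM.

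Liver genes, a list added after their values were seen, set the libraries apart. Alb, serum albumin (chromosome 5, 90460897 to 90476602, plus strand), stood at 0, 0, 0 and 0 CPM in D2A1, against 87.2, 85.4, 96.5 and 77.6 CPM in EMT6, which is at least 625-fold lower in D2A1 with D2A1 put at the floor of 3 counts over the group. Apob, the LDL apolipoprotein, was at least 182-fold lower (0 against 22.6 to 27.7 CPM). The urea cycle gene Cps1 (0 to 0.716 against 13.8 to 17.7 CPM), the cytochrome gene Cyp2e1 (0 against 7.28 to 8.78 CPM), the fatty acid binding gene Fabp1 (0 against 8.70 to 10.3 CPM) and the fibrinogen gene Fgb (0 to 0.530 against 7.28 to 11.9 CPM) followed, D2A1 given before EMT6. Of 36 such genes 28 had counts in every EMT6 library, and 0 had counts in every D2A1 library. Other liver genes were nearly silent in both lines, as Apoa1 with 0 to 1.06 CPM in D2A1 and 0 to 0.121 CPM in EMT6, and Serpina1a and Mup3 with at most 0.124 CPM in any library. Genes of the lung epithelium were found in EMT6 as well, the surfactant gene Sftpc with 0 to 0.530 against 2.15 to 4.16 CPM and Scgb1a1 with 0 against 2.88 to 3.38 CPM. In the p27K high gate the liver sums were 1.16 to 1.74 CPM in D2A1 and 188 to 255 CPM in EMT6. The source of these reads was not tested.

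The 8 genes of opposite sign in the p27K high gate were Atp1b1, Col5a2, Dcn, Fstl1, Pla2g5, Ptprb, Spon1 and Tktl1. Col5a2, a chain of fibrillar collagen V, stood at 36.5, 18.5, 32.3 and 21.8 CPM in D2A1, against 11.4, 1.96, 2.83 and 4.16 CPM in EMT6 in the negative gate, and at 0.193 to 0.588 CPM in D2A1, against 0.826 to 2.45 CPM in EMT6 in the high gate. Fstl1, a secreted glycoprotein of mesenchymal cells, stood at 15.0, 12.7, 24.4 and 12.3 CPM in D2A1, against 5.89, 2.39, 1.03 and 3.73 CPM in EMT6 in the negative gate and at 0.764 to 1.21 CPM in D2A1, against 1.70 to 2.35 CPM in EMT6 in the high gate. In the negative gate the log2 fold change of Col5a2 was 2.37 ± 0.59, and 3.11 without EMT6 column 0, and its call is lost by glmTreat (adjusted p = 0.0848), after thinning (edgeR adjusted p = 0.188) and without D2A1 columns 1, 2 and 3 (0.133). That of Fstl1 was 2.26 ± 0.48, and its call is lost without D2A1 column 3 (2.00), EMT6 column 2 (1.95) or D2A1 columns 1, 2 and 3 (1.91). The difference between the gates was not tested. Residual levels also differed between D2A1 libraries. Over the 307 genes large and lower in D2A1 with at least 20 CPM in EMT6, liver genes left out, the median level in D2A1 columns 1, 2, 3 and 4 was 11.3%, 13.0%, 6.73% and 5.68% of the EMT6 mean. In the p27K high libraries of the same tumours it was 6.04% to 7.35%. The reverse share, over 252 genes higher in D2A1, was 4.71% to 5.59% in the EMT6 libraries. That share was 3.63% to 8.41% in the p27K high gate, with EMT6 column 0 at 8.41%.

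Position along the genome (GRCm38, GENCODE vM21) was described for 10298 genes with a mean of at least 5 CPM. The median log2 fold change was -0.03 over these, and by chromosome it ran from -0.59 on chromosome 19 and -0.47 on chromosome 13 to 0.33 on chromosome 3 and 0.37 on chromosome 1. On chromosome 19, 15.6% of 371 genes were higher in D2A1, against 75.7% of 592 on chromosome 1. The p27K high libraries gave -0.49, -0.42, 0.38 and 0.41 for chromosomes 19, 13, 3 and 1. The window of 40 neighbouring genes with the lowest median, from Wbp1l to Shtn1 on chromosome 19 (46599084 to 59076100), stood at -1.26, with 1 gene of 40 higher in D2A1, and at -1.11 in the high gate. The highest, from Gbp3 to Wls on chromosome 3 (142560026 to 159938664), stood at 0.92 and 0.82. All these medians lie below 4-fold, and line and run cannot be told apart in them in either gate. Runs of at least 4 neighbours with large differences in 1 direction numbered 9 among 11390 genes. They included Pcdhb14 to Pcdhb20, protocadherin genes that share sequence and may share reads, and Hoxa2 to Hoxa4, all higher in D2A1. Cyp27a1, Prkag3, Wnt6 and Wnt10a on chromosome 1 and the fibrinogen genes Fgg, Fga and Fgb with Ctso and Tdo2 on chromosome 3 were all lower.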

How the data were processed

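RNA was measured in p27K negative and p27K high tumour cells sorted by flow cytometry after enzymatic digestion, CD45 staining and DAPI, with RNA from a miRNeasy Micro kit, per the labels' protocols. The authors deposited raw read counts per gene, 1 table per line, made by GENEWIZ, per the labels' protocols and the file headers. The submitters' processing notes name mm10 and DESeq2. The sources used here do not give the aligner, counter, strandedness or gate settings, so overlapping, antisense and near-identical genes cannot be separated with certainty.

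Each table holds 49316 entries. The 176 with a blank name (at most 0.0109% of counts in D2A1 and 0.00885% in EMT6) and 4 names turned into dates were left out. Another 97 were merged by shared symbol, which left 49038 symbols, of which 48574 matched GENCODE vM21 (GRCm38). Groups came from the labels. The labels give each replicate its own tumour.

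Counts were tested with edgeR 4.0.16 in R 4.3.3 (TMM scaling, filterByExpr, robust quasi-likelihood fit, the 8 libraries alone), with p-values adjusted over all 13633 genes tested. A large difference needed an adjusted p under 0.05 and 4-fold. Fold changes are D2A1 over EMT6. A group with 0 counts was set to a floor of 3 counts over the group, and a group with 1 to 3 counts has a ratio with a 95% exact interval, both covering counting error only. Marker sums were compared with exact permutation tests (scipy 1.17.1). Alternatives used DESeq2 1.42.0 and limma 3.58.1. On simulated counts for this comparison, with 200 of 13633 genes changed, in 5 simulations, 49.4% of genes changed 4-fold and 98% of those changed 8-fold were called large. Genes changed 4-fold sit at the fold threshold itself, so their estimates fall on both sides of it. Of these genes 88.6% had an edgeR adjusted p under 0.05 with the right sign.

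Members and lists were chosen with earlier results of these data known. Named genes were Mki67 and Cdkn1b, and the 12 largest folds in each direction at 20 CPM or more. These largest folds also had to show no overlap between the libraries of the lines, and predicted genes and pseudogenes were passed over. Also named were up to 6 large members and the member of the highest mean per list, and the 2 highest markers of other cells. The highest regulators not called large and genes found in 1 line alone were named as well. Of the genes that meet this rule, 1 was left out and is not reported here. Epcam, Cdh1, Krt5, Krt14, Csn3, Mtap, Lum, Fstl1, C1qa, Ptprc, Sftpc, Scgb1a1, Apoa1, Serpina1a and Mup3, the liver list and the promoters shown were chosen after their values were seen.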

Additional observations from a re-analysis of the deposited data

Results flagged for a closer look

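Of 376 groups of 4 libraries checked, 28 had 1 library far from the other 3, and chance alone flags about 1 in 20. In D2A1, column 1 stood high for Cdh1 (78.0 CPM), Cdh5 (7.16 CPM), Ctgf (32.9 CPM), Mfap5 (52.3 CPM), Pecam1 (8.59 CPM) and Sfn (9.31 CPM). Column 2 stood high for Adm (6.78 CPM), Pdpn (21.2 CPM) and Sox2 (159.6 CPM) and low for Cachd1 (19.0 CPM). Column 4, the deepest D2A1 library, stood high for Col23a1 (65.4 CPM) and Cx3cl1 (347 CPM) and low for Nt5e (336 CPM) and Tpm1 (1061 CPM).

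In EMT6, column 0 stood high for Cdh5 (11.2 CPM), Ereg (9.58 CPM), Il33 (328 CPM), Itga1 (15.2 CPM), Itgb1 (1868 CPM), Ltbp1 (346 CPM), Mtap (239 CPM) and Raet1e (4.18 CPM), and for the summed endothelial (22.8 CPM) and muscle markers (15.8 CPM). It stood low for Pfkp (184 CPM). Gnas stood high in column 1 (453 CPM), Hoxa3 low in column 2 (1.87 CPM) and Gdf15 low in column 4 (46.0 CPM).

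Col5a2 and Fstl1 had line differences of opposite sign in the p27K high gate, with log2 fold changes of -2.00 and -1.02 there against 2.37 and 2.26 in the negative gate. The difference between the gates was not tested.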

How the results depend on the processing

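The number of genes with a large difference, 1614 (786 higher in D2A1 and 828 lower), varied with the setting. It was 2862 (1597 and 1265) with no filter on low counts, 895 (426 and 469) with at least 5 CPM required in 4 libraries, and 588 (315 and 273) after thinning every library to the depth of the smallest. Both filter settings tested other numbers of genes, and thinning leaves fewer counts, by construction. A 2-fold threshold gave 3366 (1660 and 1706). Leaving out each library in turn gave 1619 to 1902, with 772 to 1026 higher in D2A1 and 832 to 954 lower. In the p27K high gate it gave 1968 to 2140. Total count scaling, under which the median log2 fold change of all genes was 0.11 in place of -0.01, gave 1609, upper quartile scaling 1607, DESeq2 1614, limma-voom 1597 and the fit of all 16 libraries 2064. Leaving out D2A1 columns 1, 2 and 3 together, the shallow libraries, gave 2055, and rests on 1 D2A1 library assumed to vary like the EMT6 libraries. Of 233 large named genes 196 kept sign and call in every setting that tested them, and none of 5457 values was reversed. Of 510 list medians 51 moved by more than the spread.

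Both tables use column numbers 1, 2 and 4, and a fit with the replicate block called 1681 genes (880 higher and 801 lower). Deviations of same-numbered libraries correlated at 0.0741, 0.289 and 0.02 over 5000 genes, so the numbers were not taken to pair tumours. Under the block 17 of the 233 large named genes lost the call, and Cdh5 gained one. Those lost include Ctgf, Cxcl5, Dcn, Dsp, Krt8, Ptgs2, Spint2, Tnfrsf10b and Wnt10b. Depth limits low genes in D2A1 columns 1, 2 and 3, where 1 count is worth most.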
